A study of Homo sapiens with 16 samples.

Results

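The 40 genes described here (the members) encode the machinery that copies DNA, with the cyclins and E2F factors that start S phase, and they were taken by name from a list in which each gene has a role in replication. All 40 were listed among the 13559 genes of the first experiment and the 14024 genes of the second. They fall into 10 genes of origin recognition and licensing, 6 of helicase activation and origin firing, 7 of the sliding clamp, its loader and lagging strand maturation, 6 of the DNA polymerases and primase, 4 of deoxynucleotide supply, 4 regulators of the G1/S transition and 3 of chromatin assembly and maintenance behind the fork. The cells were LN229, an established human glioblastoma line, and RNA sequencing covered 8 groups with 2 libraries each. In the first experiment untreated cells in regular culture (complete medium with serum) were set against cells in ischemic culture (low nutrients together with hypoxia). In the second, both cultures received DMSO, VX745 (an inhibitor of the kinase p38α) or MK25 (an inhibitor of MK2, a kinase that p38 activates). All groups share this 1 line, and the labels name no allele or transgene. Doses and treatment times are not in the labels used here, and the inhibitors are compared as they were applied.

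Replication is prepared in G1, when the origin recognition complex, CDC6 and CDT1 load the MCM2 to MCM7 helicase onto DNA, and it starts in S phase when CDC45, the GINS complex and MCM10 turn the loaded helicase into a moving fork. There PCNA, a sliding clamp placed by the RFC clamp loader, tethers the polymerases, FEN1 and LIG1 finish the lagging strand, and ribonucleotide reductase and thymidylate synthase supply deoxynucleotides. Many of these genes are transcribed in late G1 by E2F factors, which the retinoblastoma protein holds back until cyclin D and cyclin E kinases phosphorylate it.

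Promoter sequences are shown first because many of the genes held a sequence word that the list did not use. RefSeq promoter windows (250 bases before to 50 bases after a start, GRCh38.p14) were matched by symbol for 36 of the 40, with no window for MCM4, MCM5, GINS4 and CCNE2. On both strands, 4 words of the E2F type were searched (TTTCCCGC, TTTGGCGC, TTTGCCGC and TTTCGCGC). At least 1 of them was present in 20 of the 36 genes (55.6%), against 6.64% of the 11087 genes of the second experiment that have a window and 3.99% of all 27305 genes with one. Of the genes that fell in untreated ischemic cells, 15 of the 21 with a window held such a word, and of those not called, 5 of 15. In 23 genes of G2 and mitosis listed for comparison, 18 had a window and 2 held an E2F word, while 11 of the 18 (61.1%) held the CHR word TTTGAA, which 1 of the 36 replication genes held. Of the 11087 genes of the second experiment with a window, 14.1% held the CHR word. CCAAT was found in 21 of the 36, in 15 of the 18 genes of G2 and mitosis and in 43.4% of the genes of the second experiment. These are matches of letters, and whether a factor binds there was not measured. The CCNE1 window held none of the 4 words. The sequences below are bases before the start, on the strand of the gene and 5′ to 3′, with E2F words in capitals. Only stretches that hold an E2F word are shown, so the words in them are not a finding about the genes that fell. These 4 genes are among the 15 members that fell in all 4 ischemic comparisons. UHRF1 has 3 windows, of which 2 hold an E2F word, and the stretch shown lies within the annotated span of the gene, downstream of the first of these starts.
MCM6 (helicase subunit, chr2:135876444-135876603, minus strand, 4 words that overlap in 2 pairs): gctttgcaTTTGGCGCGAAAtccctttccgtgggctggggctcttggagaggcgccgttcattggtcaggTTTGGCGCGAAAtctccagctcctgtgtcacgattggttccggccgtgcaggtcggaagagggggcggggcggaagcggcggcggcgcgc
GINS2 (GINS complex, chr16:85688955-85689114, minus strand, 1 word 31 bases before the start): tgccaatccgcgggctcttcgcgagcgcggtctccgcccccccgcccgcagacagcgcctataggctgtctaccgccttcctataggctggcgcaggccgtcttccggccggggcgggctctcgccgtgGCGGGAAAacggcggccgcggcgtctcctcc
E2F2 (transcription factor, chr1:23531234-23531393, minus strand, 1 word 42 bases before the start): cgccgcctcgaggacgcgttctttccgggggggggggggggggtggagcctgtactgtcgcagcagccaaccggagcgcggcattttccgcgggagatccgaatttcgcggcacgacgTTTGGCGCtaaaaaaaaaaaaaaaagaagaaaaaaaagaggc
UHRF1 (maintenance methylation, chr19:4909984-4910143, plus strand, 1 word 160 bases before the start): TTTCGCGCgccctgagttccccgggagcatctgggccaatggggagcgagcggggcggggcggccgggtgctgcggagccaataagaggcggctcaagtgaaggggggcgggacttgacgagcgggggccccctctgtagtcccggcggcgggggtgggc

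Between 20122017 and 37562668 reads per library lay on the listed genes, and no member was at or under 3 reads in any library (the lowest were 72 reads for CCNE1 and, among the DMSO and inhibitor libraries, 123 for POLE2). Levels are given as log2 normalized CPM (reads scaled to a common library size), which cannot be compared between genes since they are not divided by length. The median standard deviation of a member between its 2 libraries was 0.066 and 0.037 in the first and the second experiment. The labels do not say whether replicates were separate cultures, so p-values measure the spread between these libraries, which may be technical. All 8 genes listed as a check of the ischemic condition rose in untreated and in DMSO-treated ischemic cells, among them CA9, a hypoxia-induced carbonic anhydrase, by 9.45 and 7.67 on the log2 scale. Of 9 listed markers of glioblastoma lines, 6 fell and 2 rose in untreated ischemic cells and 3 fell and 2 rose with DMSO, with SOX2 at -3.11 and -2.23 and VIM at 1.38 and 1.27. The astrocyte marker GFAP had group means of -0.34 to 0.98. Of markers of other cell types, CD68 (macrophages) and MAP2 (neurons) were among the listed genes, and PTPRC, PECAM1, EPCAM, RBFOX3 and MBP were not. The part of these changes in the results was not tested.

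The replication genes were lower in ischemic than in regular culture. Averaged over the 40 genes, the log2 level was 6.495 and 6.455 in the regular libraries of the first experiment and 5.60 and 5.67 in the ischemic libraries. With DMSO it was 6.62 and 6.54 in regular and 5.99 and 6.03 in ischemic culture. The ischemic libraries lay below the regular ones in both experiments, and the range of this mean did not overlap between the cultures. In these bulk samples, fewer cells in S phase and less RNA of these genes per cell cannot be told apart.

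A gene was called where the adjusted p of limma was under 0.05 and the fold change was at least 1.5. In untreated cells 25 of the 40 genes fell and 0 rose, against 20.2% of all genes lower and 21.3% higher, and the median log2 fold change was -0.81 for the members and -0.01 for all genes. With DMSO in both cultures 16 fell and 0 rose, against 17.9% and 18.1% of all genes, with a median of -0.50. At an unadjusted p under 0.05 and any fold change, 1 member was higher in untreated and 4 in DMSO-treated ischemic cells. Of all genes, 4923 of 13559 and 4979 of 14024 were. The 2 ischemic libraries lay below both regular libraries for 33 members in untreated cells and for 31 with DMSO, where 42.8% and 42% of all genes did so. All 16 genes that fell with DMSO were among the 25 that fell in untreated cells (64% of the 25).

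**Figure D1:**
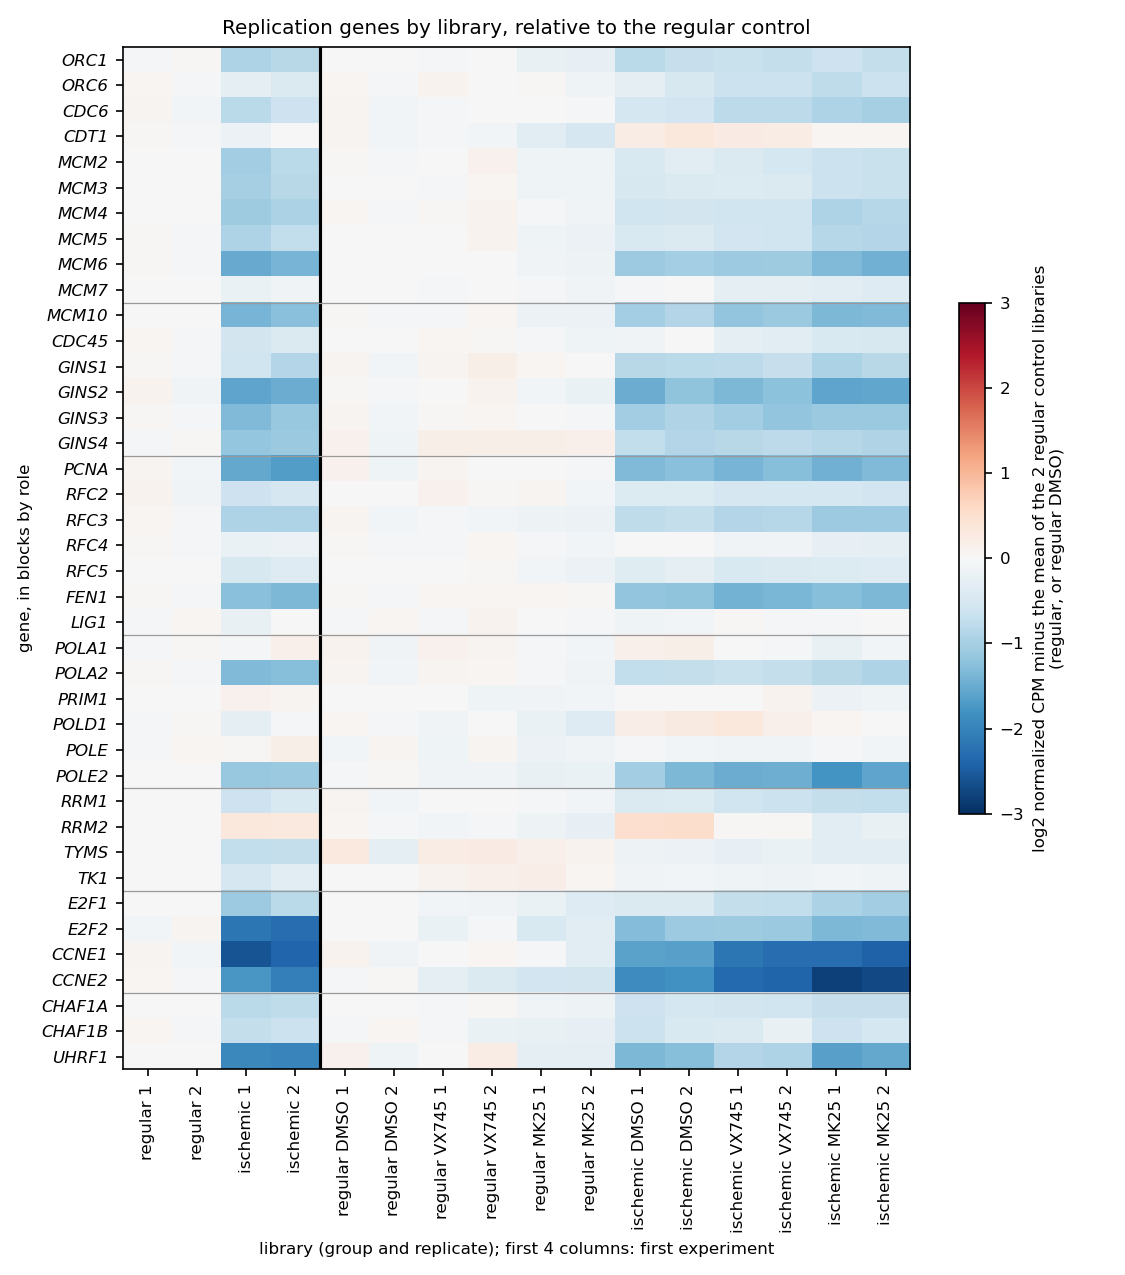
Heat map of the 40 genes (rows, in blocks by role) in the 16 libraries (columns), as log2 normalized CPM minus the mean of the 2 regular control libraries of the same experiment. Most rows are blue in the ischemic libraries. In ischemic cells without an inhibitor, the group means of RRM2, POLA1 and PRIM1 are above the regular level in both experiments. So are those of POLE in untreated cells and of CDT1 and POLD1 with DMSO. In the second experiment ischemic MK25 is the lowest group for 31 of the 40 genes.

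The licensing genes were unevenly lower. In untreated cells 7 of the 10 fell, with MCM6 falling by 1.45 and MCM4 by 1.01 on the log2 scale, and with DMSO 2 fell, MCM6 by 1.06 and ORC1, the largest subunit of the origin recognition complex, by 0.75. The helicase subunit MCM2 was at 7.94 and 7.91 in untreated regular and 6.89 and 7.11 in ischemic libraries. With DMSO its level was 7.92 and 7.84 in regular and 7.43 and 7.53 in ischemic libraries. The groups did not overlap in either experiment, but the change of -0.93 ± 0.08 (SE, adjusted p = 4.48e-07) was -0.40 ± 0.06 (SE, adjusted p = 1.06e-05) with DMSO, under the fold threshold. MCM5, another subunit, went from 7.92 and 7.85 to 6.97 and 7.15 in untreated cells. With DMSO it went from 7.90 and 7.87 to 7.42 and 7.46, again without overlap and, at -0.45, under the threshold. MCM3 had log2 fold changes of -0.91 and -0.46. MCM7 was the 1 helicase subunit of the 6 that was not called in untreated cells, with -0.15 ± 0.07 (SE, adjusted p = 0.0619) in untreated cells and -0.03 ± 0.05 (SE, adjusted p = 0.597) with DMSO. Its gene overlaps AP4M1 and 3 microRNA genes on the annotation, and without strand in the reads, counts of overlapping genes cannot be told apart.

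Of the 2 factors that load the helicase with the origin complex, CDC6 fell in untreated cells and CDT1 was not called. CDC6 was at 6.96 and 6.80 in untreated regular libraries and 6.07 and 6.27 in ischemic ones. With DMSO the values were 6.96 and 6.80 against 6.35 and 6.30, and the log2 fold changes were -0.71 ± 0.08 (SE, adjusted p = 9.63e-06) and -0.56 ± 0.06 (SE, adjusted p = 2.76e-07), called in untreated cells (1.64-fold lower) and not with DMSO (1.47-fold lower). In VX745 and in MK25 the ischemic change of CDC6 was -0.79 and -0.92, called in both. CDT1, the partner of CDC6 in loading, was at 6.36 and 6.31 (regular) and 6.17 and 6.32 (ischemic) in untreated libraries, which overlapped. With DMSO it was at 6.36 and 6.21 in regular and 6.51 and 6.61 in ischemic libraries, higher by 0.27 (95% interval 0.13 to 0.42, adjusted p = 0.0015) and under the fold threshold. ORC6, the smallest subunit of the origin complex, had -0.36 and -0.38 and was not called in either.

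Of the genes that turn a loaded helicase into a fork, 5 of 6 fell in untreated cells and the same 5 with DMSO. All 4 GINS subunits fell, and GINS2 fell most. GINS2 was at 5.66 and 5.43 in untreated regular libraries and 3.96 and 4.05 in ischemic libraries. DMSO-treated libraries had 5.92 and 5.82 (regular) and 4.39 and 4.67 (ischemic), a change of -1.34 ± 0.09 (SE, adjusted p = 3.22e-10) after -1.54 ± 0.10 (SE, adjusted p = 4.50e-08) in untreated cells. Its annotated span overlaps that of GSE1. MCM10, which joins the helicase to the polymerases, changed by -1.31 and -0.96, and GINS1, GINS3 and GINS4 lay between -1.23 and -0.75 in untreated cells and between -0.98 and -0.80 with DMSO. CDC45, the other part of the active helicase, was not called. It was at 6.16 and 6.05 (regular) and 5.56 and 5.68 (ischemic) in untreated libraries, lower by 0.49. In DMSO it was at 6.24 and 6.22 (regular) and 6.13 and 6.21 (ischemic), a change of -0.06 with a 95% interval of -0.18 to 0.06.

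At the clamp, 3 of 7 genes fell in each experiment, and they were PCNA, FEN1 and RFC3. PCNA was at 7.85 and 7.68 in untreated regular libraries and 6.22 and 6.09 in ischemic libraries, a 3.05-fold fall. With DMSO the level was 8.02 and 7.78 against 6.58 and 6.65, a 2.44-fold fall (adjusted p = 3.26e-09 and 4.76e-11). Reads of PCNA could be shared with 4 named pseudogenes. FEN1, the flap nuclease of the lagging strand, was at 8.12 and 8.03 (regular) and 6.81 and 6.74 (ischemic) in untreated libraries. With DMSO its levels were 8.14 and 8.06 (regular) and 6.92 and 6.90 (ischemic), so that the log2 fold change was -1.30 untreated and -1.19 with DMSO. Of the clamp loader subunits, RFC3 had log2 fold changes of -0.93 and -0.74, RFC2 of -0.56 and -0.41, RFC5 of -0.43 and -0.33 and RFC4 of -0.19 and -0.00. LIG1, the ligase that seals the lagging strand, had -0.13 and -0.11 and its libraries overlapped in untreated cells.

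Of the 6 polymerase and primase genes, the accessory subunits POLA2 and POLE2 fell and the other 4 were not called. POLA2, the B subunit of polymerase α, fell by 1.31 in untreated cells and by 0.72 with DMSO on the log2 scale. POLE2, the accessory subunit of polymerase ε, was at 3.40 and 3.37 in untreated regular and 2.25 and 2.28 in ischemic libraries. Its DMSO levels were 3.53 and 3.58 (regular) and 2.50 and 2.20 (ischemic), changes of -1.12 ± 0.13 (SE, adjusted p = 1.07e-05) and -1.20 ± 0.13 (SE, adjusted p = 2.10e-07). The catalytic subunits POLA1, POLD1 and POLE and the primase PRIM1 had log2 fold changes from -0.15 (POLD1) to 0.10 (PRIM1) in untreated cells, and from -0.06 (POLE) to 0.24 (POLD1, adjusted p = 0.00648, under the fold threshold) with DMSO. The 95% interval for POLE was -0.06 to 0.26 in untreated cells and -0.21 to 0.09 with DMSO, which leaves out a change of the size seen for POLE2.

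RRM2, the regulated subunit of ribonucleotide reductase, lay higher in ischemic culture. It was at 8.74 and 8.71 in untreated regular and 9.04 and 9.03 in ischemic libraries. With DMSO it was at 8.94 and 8.80 (regular) and 9.37 and 9.39 (ischemic). Both ischemic libraries lay above both regular ones in each experiment, with log2 fold changes of 0.31 ± 0.06 (SE, adjusted p = 9.99e-04) and 0.51 ± 0.06 (SE, adjusted p = 7.26e-07), under the fold threshold. After quantile normalization these were 0.10 (adjusted p = 0.167) and 0.16, and RRM2 has 3 named pseudogenes. RRM1, the large subunit of the same enzyme, had changes of -0.54 and -0.42, and TK1, the thymidine kinase of the salvage route, of -0.42 and -0.10. TYMS, which makes thymidylate, was at 6.58 and 6.54 (regular) and 5.82 and 5.85 (ischemic) in untreated libraries and fell by 0.72 (adjusted p = 1.57e-06). DMSO-treated libraries had 6.53 and 5.92 in regular and 6.08 and 6.05 in ischemic libraries, and the lower of the regular libraries lay below both ischemic ones. That pair had the widest spread of any member in any group (SD 0.43), and the change of -0.16 was not called. TYMS overlaps ENOSF1.

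The G1/S regulators held the 2 steepest falls in each experiment. CCNE1, which encodes cyclin E1, was at 4.25 and 4.10 in untreated regular libraries and 1.58 and 1.80 in ischemic libraries, 5.59-fold lower. In DMSO it was at 4.63 and 4.43 (regular) and 2.93 and 2.90 (ischemic), 3.06-fold lower. The log2 fold changes were -2.48 ± 0.14 (SE, adjusted p = 1.45e-08) and -1.62 ± 0.11 (SE, adjusted p = 9.47e-10). CCNE2, for cyclin E2, was at 5.22 and 5.11 (regular) and 3.43 and 3.13 (ischemic) in untreated libraries. With DMSO the level was 5.46 and 5.51 (regular) and 3.58 and 3.65 (ischemic), and its changes of -1.89 and -1.86 were alike in size. CCNE2 overlaps INTS8 and NDUFAF6. E2F2, an activator E2F, was at 5.44 and 5.59 in untreated regular and 3.36 and 3.25 in ischemic libraries. In DMSO it was at 5.49 and 5.53 (regular) and 4.20 and 4.42 (ischemic), with log2 fold changes of -2.22 untreated and -1.20 with DMSO. E2F1 was at 7.07 and 7.06 (regular) and 5.97 and 6.25 (ischemic) in untreated libraries. Its DMSO levels were 7.37 and 7.39 (regular) and 6.95 and 6.95 (ischemic), without overlap, and it was called in untreated cells (-0.96) but not with DMSO (-0.43). Whether the ischemic change differed between the 2 experiments was not tested, since each has its own table and normalization.

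Behind the fork, UHRF1, which brings DNA methylation back after replication, was at 7.38 and 7.40 in untreated regular and 5.45 and 5.40 in ischemic libraries. With DMSO it was at 7.27 and 7.01 (regular) and 5.79 and 5.87 (ischemic). The groups were far apart in both, with changes of -1.96 ± 0.07 (SE, adjusted p = 1.97e-10) and -1.31 ± 0.08 (SE, adjusted p = 1.25e-10), and UHRF1 overlaps ARRDC5. CHAF1A and CHAF1B, the 2 large subunits of the histone chaperone CAF-1, fell by 0.79 and 0.68 in untreated cells and had -0.57 and -0.55 with DMSO, just under the fold threshold.

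**Figure D2:**
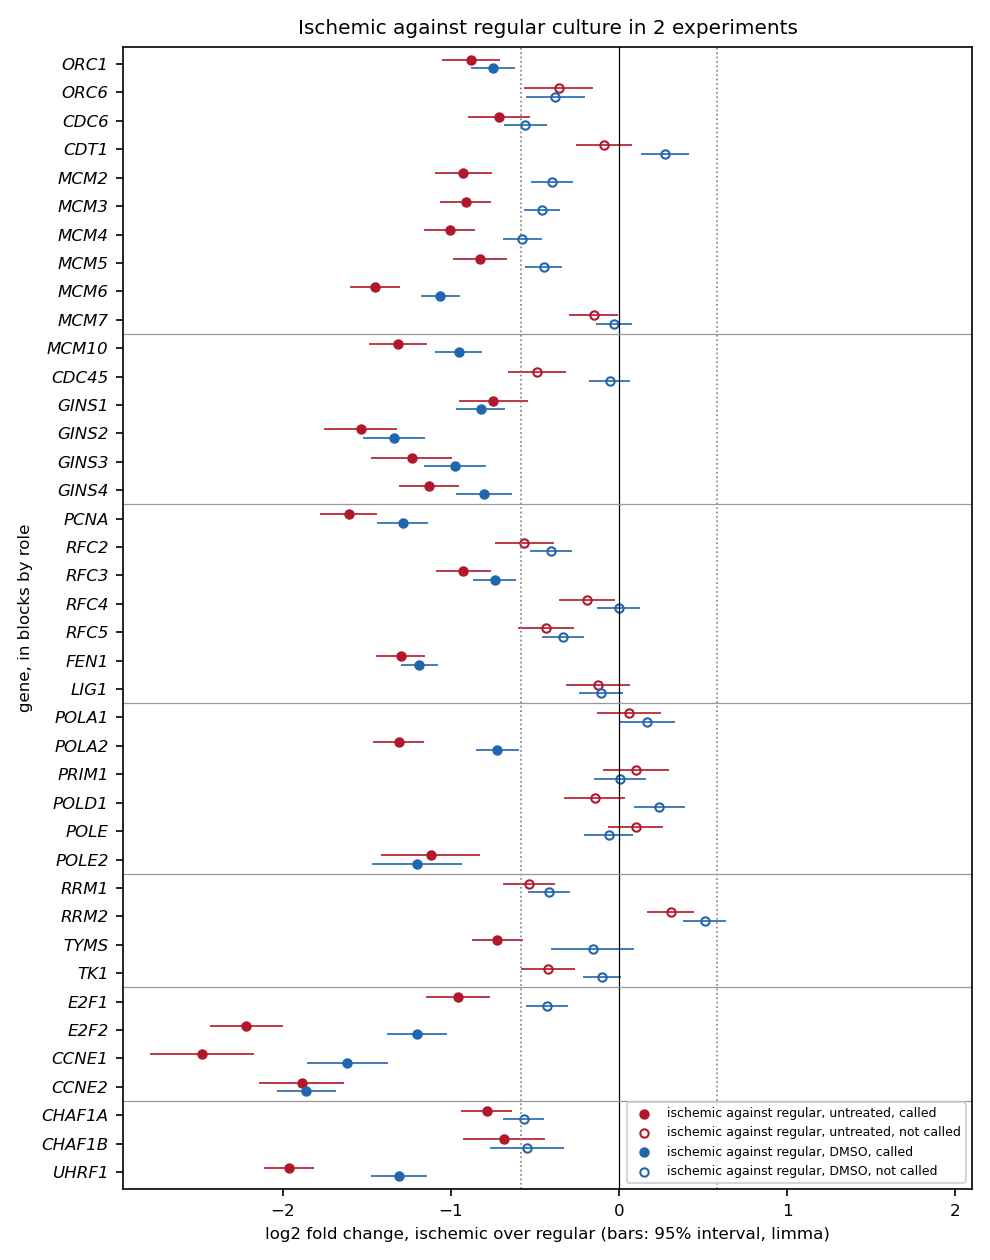
Log2 fold change of ischemic over regular culture for each of the 40 genes (points, with 95% intervals from limma), untreated in red and with DMSO in blue, in blocks by role. Filled points were called, and the dotted lines mark a fold change of 1.5. CCNE1, E2F2, UHRF1 and CCNE2 lie furthest to the left in untreated cells, and RRM2 lies to the right of 0 in both.

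With an inhibitor present in both cultures the same direction was seen. In VX745 23 members fell and 0 rose between regular and ischemic culture, against 14.5% of all genes lower and 18.5% higher (median of the members -0.63). In MK25 21 fell and 0 rose, against 15% and 17.7% (median -0.65). The largest falls were those of CCNE1 (-2.25), CCNE2 (-2.01) and FEN1 (-1.46) in VX745. In MK25 they were those of CCNE2 (-2.19), CCNE1 (-2.16) and POLE2 (-1.47). Over the 4 ischemic comparisons, which share no library, 15 members fell in all 4 and 12 in none. The 15 were CCNE1, CCNE2, E2F2, UHRF1, PCNA, FEN1, RFC3, MCM6, MCM10, GINS1, GINS2, GINS3, GINS4, POLA2 and POLE2. The 12 were CDT1, MCM7, CDC45, LIG1, RFC4, RFC5, POLA1, POLD1, POLE, PRIM1, RRM2 and TK1. Over the 40 genes the log2 fold changes in untreated and DMSO-treated cells had a Pearson r of 0.926 and a Spearman rho of 0.932, a description across genes that share libraries within each experiment. The value was lower in untreated than in DMSO-treated cells for 35 of the 40.

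Other genes of the same pathway came from lists that do not hold the 40, and their counts stand beside 20.2% of all genes lower in untreated cells and 17.9% with DMSO. Of 15 further licensing and firing factors, 3 fell in untreated cells (CDC7 -0.89, GMNN -0.88 and DBF4 -0.63) and 3 with DMSO (DBF4 -1.17, CDC7 -0.77 and GMNN -0.65), with list medians of -0.04 and -0.20. CDC7 and DBF4 form the kinase that fires origins, and GMNN encodes geminin, which blocks CDT1. Of 20 further fork and polymerase subunits, 6 fell and 1 rose in untreated cells and 5 fell and 1 rose with DMSO, led by CLSPN (-1.95 and -1.49) and TIPIN (-1.67 and -1.48), which keep the fork coupled, while POLD4, a small subunit of polymerase δ, rose by 0.79 and 0.84. Of 14 further nucleotide enzymes, 7 fell and 1 rose, and 5 fell and 1 rose with DMSO, with DCTPP1 at -1.96 and -1.33 and TK2, the mitochondrial thymidine kinase, rising by 0.85 and 0.92. Of 12 genes of histone supply and chromatin copying, 6 fell in each experiment, among them CDCA7 (-2.06 and -1.07) and ZNF367 (-1.08 and -1.23).

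Of the 23 genes of G2 and mitosis, 4 fell and 1 rose in untreated cells, against 20.2% of all genes lower and 21.3% higher. With DMSO 1 fell and 1 rose, against 17.9% and 18.1%. The medians of the 23 were -0.22 and -0.17. CDC20, KIF20A and CCNB1 fell by 0.94, 0.92 and 0.90 in untreated cells, and UBE2C, a ubiquitin-conjugating enzyme of mitosis, rose by 0.69 and 1.05. The mean log2 level of the 23 was 8.016 and 7.995 in untreated regular and 7.81 and 7.79 in ischemic libraries. With DMSO it was 7.95 and 7.91 in regular and 7.92 and 7.93 in ischemic libraries, which overlap. The difference between the 40 and the 23 genes was not tested.

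**Figure D3:**
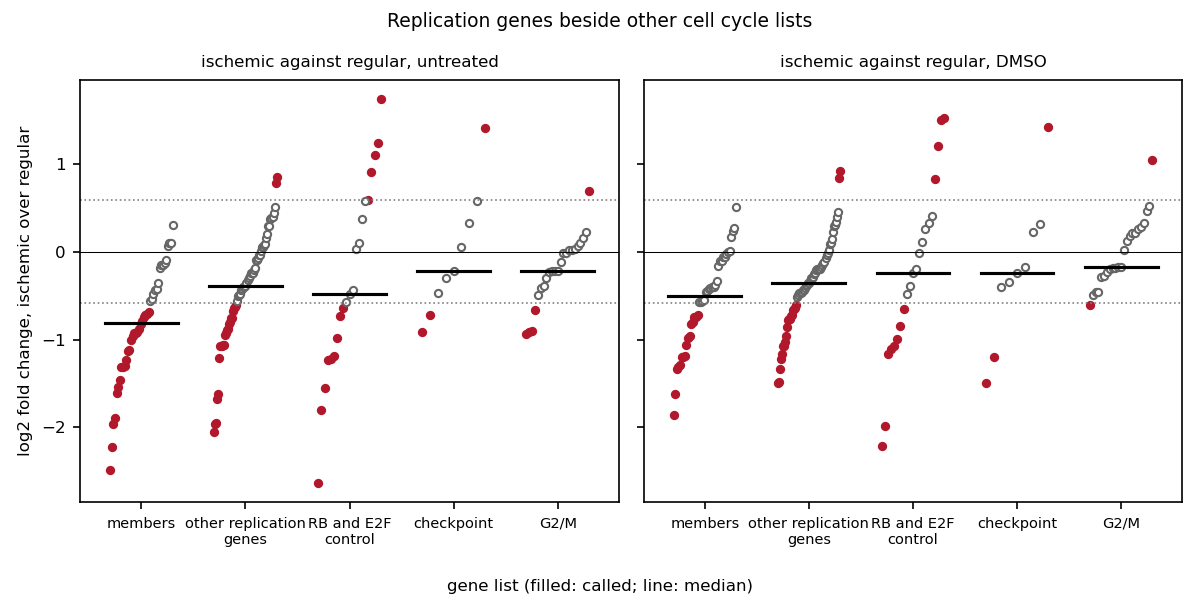
Log2 fold changes of ischemic over regular culture for the 40 replication genes (members) beside 4 lists of related genes, in untreated (left) and DMSO-treated cells (right). Each point is a gene, filled where called, black lines are medians and dotted lines mark a fold change of 1.5. The median of the replication genes is -0.81 and -0.50 and that of the G2/M genes is -0.22 and -0.17.

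Upstream of these genes, 21 regulators of the RB and E2F pathway moved both ways. In untreated cells 9 fell and 5 rose, against 20.2% of all genes lower and 21.3% higher. With DMSO 8 fell and 4 rose, against 17.9% and 18.1%. CDC25A, the phosphatase that activates the cyclin E kinase, fell, at -2.63 and -2.21. SKP2, which marks the inhibitor p27 for degradation, fell, at -1.81 and -1.99, as did CCND1, for cyclin D1, at -1.55 and -1.07. E2F7, a repressor E2F, rose by 1.74 and 1.53, and the inhibitor genes CDKN2D, CDKN1B and CDKN1A rose by 1.24, 1.10 and 0.91 in untreated cells and by 1.20, 0.83 and 1.49 with DMSO. Of 9 checkpoint kinases and adaptors, 2 fell and 1 rose in each experiment, beside the same shares of all genes. In untreated cells ATR and ETAA1 fell by 0.91 and 0.72 and WEE1 rose by 1.40.

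In ischemic culture, both cyclin E genes and RRM2 fell with MK25, CCNE1 fell with VX745, and no member rose with either inhibitor. With VX745 1 member fell and 0 rose, against 0.906% of all genes lower and 4.35% higher. At any fold change and an adjusted p under 0.05, 11 were lower and 1 higher, against 14.9% and 14%, and the median was -0.07. With MK25 3 members fell and 0 rose, against 2.65% and 7.02%. At any fold change 23 were lower and 0 higher, against 22% and 19.8%, with a median of -0.23 for the members. Both comparisons use the same DMSO libraries. The mean level of the 40 genes was 5.99 and 6.03 in ischemic DMSO, 5.92 and 5.91 in ischemic VX745 and 5.75 and 5.76 in ischemic MK25 libraries, and the 3 groups did not overlap.

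Values of the called genes are given first. CCNE1 was at 2.36 and 2.25 in ischemic VX745 and 2.25 and 2.09 in ischemic MK25 libraries, below the 2.93 and 2.90 with DMSO, changes of -0.61 ± 0.11 (SE, adjusted p = 7.95e-04) and -0.74 ± 0.11 (SE, adjusted p = 7.06e-05). CCNE2 was at 3.14 and 3.08 (VX745) and 2.68 and 2.78 (MK25), with -0.51 ± 0.08 (SE, adjusted p = 2.99e-04) in VX745, under the fold threshold, and -0.89 ± 0.08 (SE, adjusted p = 3.79e-07) in MK25. RRM2, which had been higher in ischemic DMSO than in regular DMSO, was at 8.91 and 8.90 in VX745 and 8.54 and 8.65 in MK25, changes of -0.48 ± 0.06 (SE, adjusted p = 2.42e-05) and -0.79 ± 0.06 (SE, adjusted p = 4.46e-08). After quantile normalization the RRM2 changes were -0.26 and -0.53, the second of these then under the fold threshold. In ischemic MK25 RRM2 lay below both regular DMSO libraries (8.94 and 8.80) and had -0.08 against regular MK25. The call of CCNE1 with VX745 was lost without the second ischemic VX745 library, where 0 members were called.

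At any fold change, 9 of the 10 licensing and 3 of the 6 firing genes were lower with MK25 in ischemic culture, and 3 and 2 with VX745. Of all genes, 22% and 14.9% were. Of the other roles, 3 of 6 polymerase and primase genes, 3 of 4 G1/S regulators and 2 of 4 nucleotide genes were lower with MK25. So were 2 of 7 clamp and 1 of 3 chromatin genes. With VX745 the counts of these roles, in the same order, were 0, 3, 2, 1 and 0. After quantile normalization, an alternative chosen after seeing the data, the licensing and firing counts were 5 and 4 with MK25 and 2 and 1 with VX745. With MK25, E2F1 went from 6.95 and 6.95 in ischemic DMSO to 6.44 and 6.33 (-0.57), and with VX745 to 6.67 and 6.64 (-0.30). MCM5 was at 7.31 and 7.30 (VX745) and 7.03 and 7.01 (MK25), CDC6 at 6.08 and 6.08 (VX745) and 5.94 and 5.89 (MK25), and CDC45 at 5.93 and 5.90 (VX745) and 5.77 and 5.74 (MK25). The MK25 values of these 3 genes lay below those with DMSO in both libraries, with changes of -0.42, -0.41 and -0.42 on the log2 scale. MCM2 was at 7.45 and 7.36 (VX745) and 7.24 and 7.22 (MK25), changes of -0.08 and -0.25. CDT1 was at 6.54 and 6.51 (VX745) and 6.35 and 6.34 (MK25), changes of -0.04 and -0.22. ORC1 had 0.07 with MK25 and 0.06 with VX745, and GINS1, GINS3 and GINS4 did not pass the test with either.

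PCNA, FEN1, GINS2 and POLE2, which fell in all 4 ischemic comparisons, were not called with either inhibitor on the deposited scale. PCNA was at 6.499 and 6.62 in ischemic VX745 and 6.46 and 6.58 in ischemic MK25 libraries, changes of -0.05 (95% interval -0.20 to 0.10) and -0.09 (-0.24 to 0.06). FEN1 was at 6.68 and 6.72 (VX745) and 6.83 and 6.76 (MK25), and GINS2 at 4.52 and 4.63 (VX745) and 4.28 and 4.31 (MK25), with -0.21 for FEN1 in VX745 and -0.23 for GINS2 in MK25. POLE2 was at 2.05 and 2.09 (VX745) and 1.77 and 1.97 (MK25), with -0.48 in MK25 (adjusted p = 0.00651), which after quantile normalization was -0.67 (adjusted p = 7.57e-04) and passed the fold threshold. Each of these 4 genes lay below its regular DMSO level in every ischemic library of either inhibitor. TYMS was at 5.97 and 6.03 (VX745) and 5.91 and 5.88 (MK25), and E2F2 at 4.46 and 4.39 (VX745) and 4.16 and 4.19 (MK25), with changes of -0.07 and -0.17 for TYMS and 0.11 and -0.13 for E2F2.

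UHRF1 differed between the inhibitors. It was at 6.27 and 6.22 in ischemic VX745 and 5.51 and 5.62 in ischemic MK25 libraries, on either side of the 5.79 and 5.87 with DMSO. The changes from DMSO were 0.42 ± 0.08 (SE, adjusted p = 9.66e-04) and -0.27 ± 0.08 (SE, adjusted p = 0.0124), both under the fold threshold, and MK25 against VX745 gave -0.68 ± 0.08 (SE, adjusted p = 8.12e-06), which was called. It was the 1 member called in that comparison, against 2.2% of all genes lower and 1.75% higher with MK25. At any fold change 13 members were lower and 0 higher with MK25 than with VX745, against 10.2% and 8.22%, among them MCM6 (-0.31), MCM4 (-0.29) and MCM5 (-0.28).

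**Figure D4:**
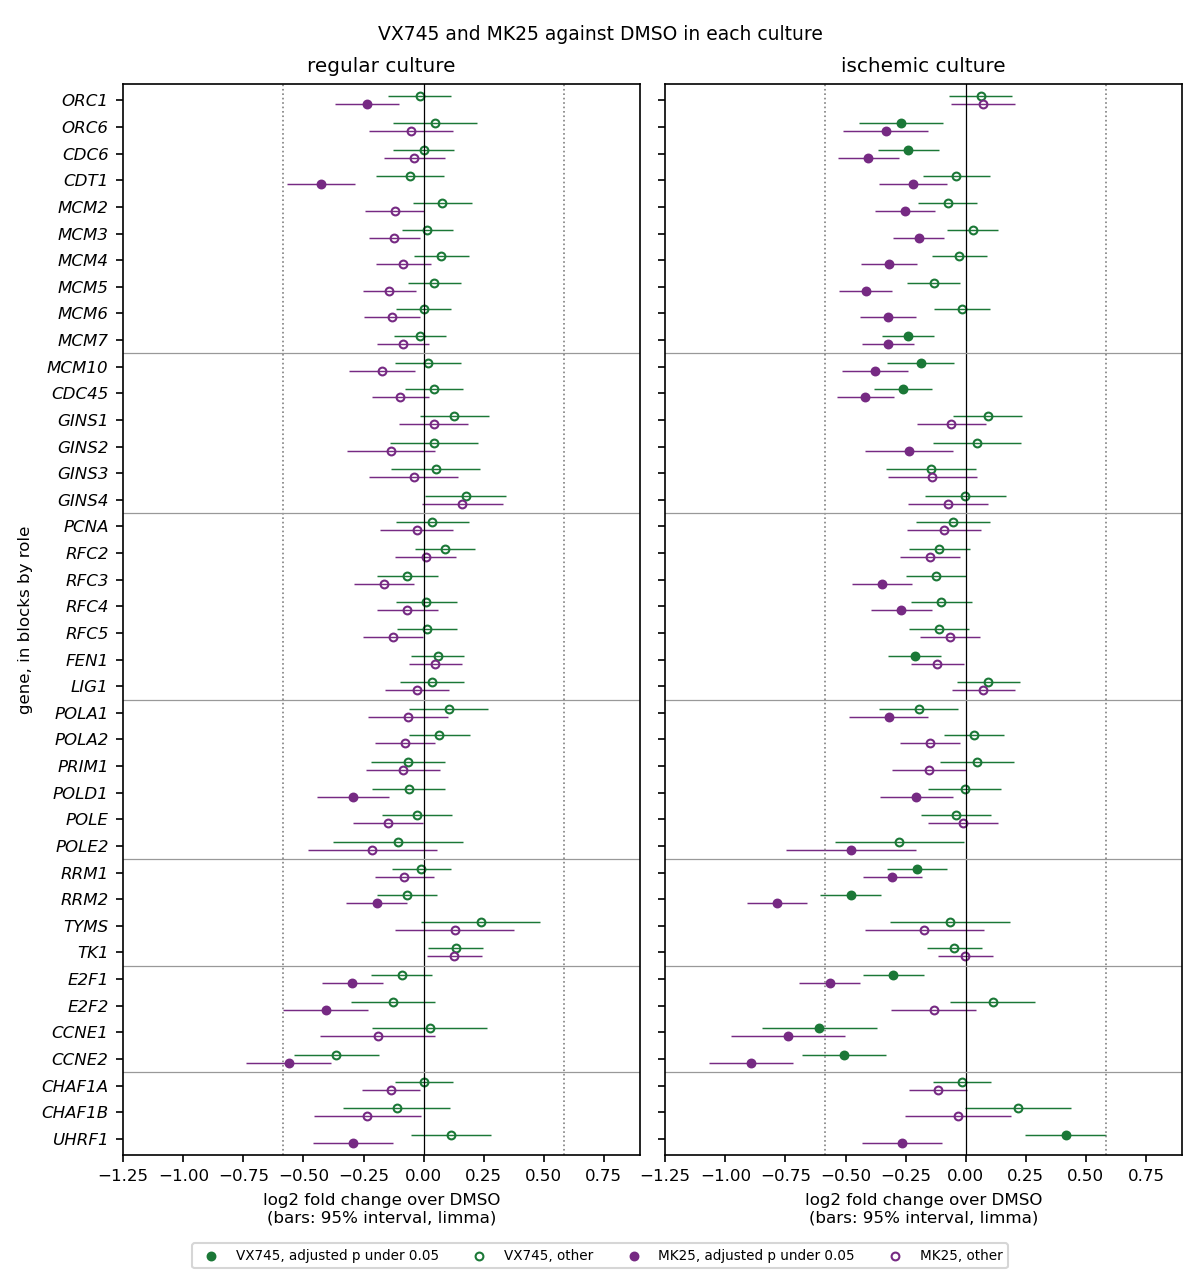
Log2 fold change over DMSO for each of the 40 genes in regular (left) and ischemic culture (right), VX745 in green and MK25 in purple, with 95% intervals from limma. Filled points have an adjusted p under 0.05, and dotted lines mark a fold change of 1.5. In ischemic culture CCNE2, RRM2 and CCNE1 lie furthest to the left with MK25, and UHRF1 lies to the right with VX745.

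In regular culture no member was called by limma with either inhibitor, and voom on the recovered reads also called 0. VX745 against DMSO gave 0 of 40 in each direction, against 0.0357% of all genes lower and 0.0642% higher, and at any fold change also 0, against 0.157% and 0.178%. At an unadjusted p under 0.05, 1 member was lower and 2 were higher, against 1095 and 980 of the 14024 genes. CCNE2, the gene with the largest change, was at 5.19 and 5.05 after 5.46 and 5.51 with DMSO (-0.36, adjusted p = 0.0773). MK25 gave 0 calls, against 0.606% of all genes lower and 1.88% higher. At any fold change 8 members were lower and 0 higher, against 5.21% and 7%. The 8 were CCNE2, CDT1, E2F2, E2F1, UHRF1, POLD1, ORC1 and RRM2. At an unadjusted p under 0.05, 17 were lower and 1 higher, against 1830 and 2045 of the 14024 genes.

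In regular MK25 libraries CCNE2 was at 4.91 and 4.93, just under the fold threshold at -0.56 ± 0.08 (SE, adjusted p = 2.45e-04). It was called when the first regular DMSO library was left out, which gave 1 call. CDT1 was at 5.94 and 5.79 with MK25 and 6.26 and 6.20 with VX745, after 6.36 and 6.21 with DMSO, so that MK25 lay below the other groups. E2F2 was at 5.05 and 5.16 with MK25 and 5.31 and 5.46 with VX745, and E2F1 at 7.17 and 6.998 (MK25) and 7.29 and 7.28 (VX745). UHRF1 was at 6.85 and 6.84 (MK25) and 7.15 and 7.35 (VX745), and MK25 against VX745 in regular culture gave -0.41 ± 0.08 (SE, adjusted p = 0.00386). In that comparison 0 members were called, against 0.228% of all genes lower and 1.23% higher, and at any fold change 4 were lower (UHRF1, CDT1, ORC1 and MCM5) and 0 higher, against 1.43% and 3.96%. At an unadjusted p under 0.05, 18 were lower and 0 higher, against 1040 and 1431 of the 14024 genes.

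The G1/S gene CCNE1, unlike CCNE2, overlapped DMSO with both inhibitors in regular culture, at 4.51 and 4.60 (VX745) and 4.47 and 4.21 (MK25). RRM2 was at 8.80 and 8.81 (VX745) and 8.73 and 8.62 (MK25), the latter below both DMSO libraries. The helicase subunits MCM2 and MCM5 were also below DMSO with MK25, MCM2 at 7.76 and 7.75 after 7.90 and 8.02 with VX745, and MCM5 at 7.77 and 7.72 after 7.88 and 7.98. Their changes of -0.12 and -0.14 did not pass the test. CDC6 was at 6.85 and 6.90 (VX745) and 6.85 and 6.82 (MK25), within the DMSO range, and CDC45 at 6.28 and 6.26 (VX745) and 6.16 and 6.10 (MK25), above and below it. PCNA was at 7.97 and 7.90 (VX745) and 7.90 and 7.84 (MK25), and FEN1 at 8.15 and 8.16 (VX745) and 8.17 and 8.13 (MK25). The clamp and flap nuclease genes had changes of 0.04 and -0.03 (PCNA) and 0.06 and 0.05 (FEN1). GINS2 was at 5.86 and 5.97 (VX745) and 5.78 and 5.68 (MK25), and POLE2 at 3.45 and 3.44 (VX745) and 3.32 and 3.35 (MK25), with MK25 below both DMSO libraries in each. TYMS was at 6.45 and 6.47 (VX745) and 6.37 and 6.34 (MK25), between the 2 regular DMSO values.

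**Figure D5:**
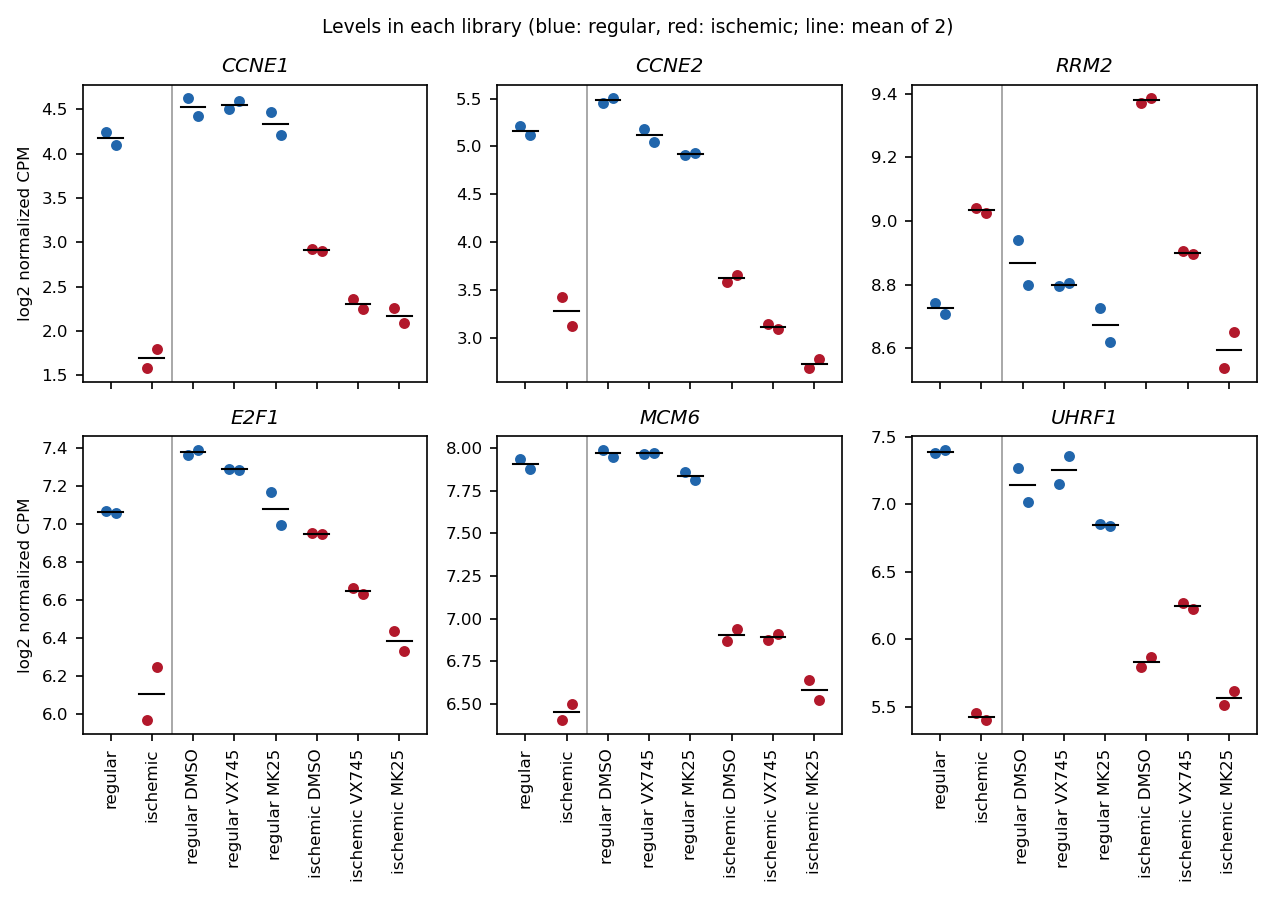
Log2 normalized CPM of 6 genes in each of the 16 libraries (points), with the mean of each group of 2 as a line, regular in blue and ischemic in red, and the first experiment left of the grey line. The group means of CCNE1, CCNE2 and E2F1 step down from DMSO to VX745 to MK25 in ischemic culture, but the VX745 and MK25 libraries of CCNE1 overlap. RRM2 is highest in ischemic DMSO, and UHRF1 is higher with VX745 than with MK25.

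Whether an inhibitor acted differently in the 2 cultures was tested as an interaction, the change in ischemic minus the change in regular culture. For VX745 1 member was called lower and 0 higher, against 0.734% and 2.35% of all genes, and at any fold change 4 lower and 0 higher, against 6% and 5.78%. The called gene was CCNE1 at -0.63 ± 0.16 (SE, adjusted p = 0.0172), from 0.02 in regular to -0.61 in ischemic culture. For MK25 1 member was called lower and 0 higher, against 3.53% and 4.41%, and at any fold change 9 were lower and 1 higher, against 13.9% and 10.5%. The called gene was RRM2 at -0.59 ± 0.08 (SE, adjusted p = 1.15e-04), from -0.20 to -0.79, and after quantile normalization it was -0.34. The call of CCNE1 was lost without the second ischemic VX745, the first ischemic DMSO, the second regular VX745 or the second regular DMSO library, and there were 2 calls without the first regular DMSO library. The call of RRM2 was lost without the first ischemic MK25, the second ischemic DMSO, the first regular MK25 or the second regular DMSO library.

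The order of the 6 groups of the second experiment differed between members. Ischemic MK25 was the lowest group for 31 of the 40, ischemic VX745 for 4, regular MK25 for 3 and ischemic DMSO for 2. Regular VX745 was the highest group for 23, regular DMSO for 12, ischemic DMSO for 4 and ischemic VX745 for 1. At the top of this order, no member passed the test between regular VX745 and regular DMSO.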

How the data were processed

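RNA was sequenced from 16 LN229 libraries, 4 in the first and 12 in the second experiment. Per the submitters' processing notes, reads were aligned with HISAT2 to GRCh38 and handled with edgeR, and the settings for reads that match several genes or both strands are not given in the sources used here. The authors deposited 1 table per experiment of log2 normalized CPM by Entrez gene, and 99.4% and 99.3% of the IDs matched a symbol. From the steps between low values, whole reads were recovered within a tolerance of 0.1 and used for depth, a floor of 3 reads and an alternative test. These values are not counts, so limma 3.58.1 (R 4.3.3) was fitted to the deposited log2 values of all genes of a table, with 1 mean per group and a variance trend, after tests on simulated data. P-values were two-sided and Benjamini-Hochberg adjusted over all genes. Intervals are 95%. No gene was filtered. Tables, promoter word searches and figures were made with Python 3.11.15, numpy 2.4.6, pandas 2.3.3 and matplotlib 3.10.9. The members and lists were chosen with earlier results of these data known. Levels in every library are given for 13 members fixed by name (MCM2, MCM5, CDC6, CDT1, CDC45, PCNA, RRM2, TYMS, E2F1, E2F2, CCNE1, CCNE2 and UHRF1) and for up to 3 called members with the largest change in each comparison. Alternatives were other fold thresholds, an unadjusted p, a filter on low values, median centring, quantile normalization, no variance trend, a replicate block, the compared groups alone, voom on recovered reads and leaving out each library. Same-numbered replicates were not taken as pairs (r of their deviations 0.153 for the 1 pair of groups in the first experiment and from -0.094 to 0.128 for the 15 in the second, 1 of them over 0.1).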

Additional observations from a re-analysis of the deposited data

Results flagged for a closer look

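For 14 results on the 40 genes, the change with an inhibitor differed between ischemic and regular culture by the interaction test (limma, adjusted over all genes), most of them without reaching a fold change of 1.5. With VX745 these were 4 lower and 0 higher, against 6% and 5.78% of all genes. With MK25 there were 9 lower and 1 higher, against 13.9% and 10.5%. Values are the change in ischemic minus the change in regular culture on the log2 scale. With VX745 they were -0.63 for CCNE1 (adjusted p = 0.0172), -0.41 for RRM2 (0.00609), -0.30 for CDC45 (0.0211) and -0.27 for FEN1 (0.0253). With MK25 the largest were -0.59 for RRM2 (adjusted p = 1.15e-04), -0.55 for CCNE1 (0.0193), -0.37 for CDC6 (0.00496) and -0.33 for CCNE2 (0.0493). The replication fork genes CDC45, MCM5, MCM7 and MCM4 had -0.32, -0.27, -0.24 and -0.23 with MK25, and E2F1 had -0.27. ORC1 went the other way, at 0.31 (adjusted p = 0.0171), from -0.24 in regular to 0.07 in ischemic culture. After quantile normalization the RRM2 value with VX745 was -0.19 and that of MCM7 with MK25 was 0.0026 (adjusted p = 0.983). The interactions of both inhibitors use the same DMSO libraries.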

How the results depend on the processing

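Counts are of members called by limma, and they show only how the calls moved with a setting. The shares of all genes at any fold change are given above for the inhibitor comparisons and interactions. For the ischemic comparisons at any fold change, numbers of all genes are given at an unadjusted p. For the other settings no share of all genes is given, so those counts are not set against all genes. At an unadjusted p under 0.05 and any fold change, 33 members were lower in untreated ischemic cells, 28 with DMSO, 31 in VX745 and 33 in MK25. In the same order 1, 4, 2 and 2 were higher. Of all genes, 4916 of 13559 and 5108, 4770 and 4890 of 14024 were lower, and 4923, 4979, 4953 and 4868 were higher. At an adjusted p under 0.05 and any fold change, 1 member was higher in untreated ischemic cells. By this rule 3 were higher and 28 lower with DMSO, 2 higher and 31 lower in VX745, and 2 higher and 33 lower in MK25. In ischemic culture 1 was then higher and 11 lower with VX745 against DMSO, 23 lower with MK25 against DMSO and 13 lower with MK25 against VX745. In regular culture 8 were lower with MK25 against DMSO and 4 with MK25 against VX745, and the interactions had 4 lower for VX745 and 1 higher and 9 lower for MK25. At a fold change of at least 2, the ischemic falls numbered 14 untreated, 9 with DMSO, 10 in VX745 and 11 in MK25, and the calls of the inhibitor comparisons in ischemic culture and of both interactions went to 0. Quantile normalization gave 2 lower members with VX745 in ischemic culture (CCNE1 and CCNE2), and without a variance trend the interaction of VX745 had 0. The causes were not tested. Leaving out 1 library gave 25 to 27 falls untreated, 16 to 19 with DMSO, 22 to 25 in VX745 and 20 to 22 in MK25. It gave 0 to 1 lower with VX745 and 3 to 4 with MK25 in ischemic culture, 1 to 1 with MK25 against VX745 there, 0 to 1 with MK25 in regular culture, and 0 to 2 and 0 to 3 for the interactions of VX745 and MK25. The interaction of MK25 had 0 calls without the second ischemic DMSO, the first regular MK25 or the second regular DMSO library, 2 without the second regular MK25 and 3 without the first regular DMSO library. Where an arm kept 1 library, it was assumed to vary like the other groups.

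A replicate block left the counts in untreated cells (25 lower), with DMSO (16), in VX745 (23) and in MK25 (21) and those of the inhibitor comparisons as they were. Over the called values of single members, 1207 alternatives kept the direction and the side of the threshold, 64 kept the direction and no longer passed, and 0 changed sign. Part of this tally was fixed in advance. The rules of any fold change and of an unadjusted p only loosen the threshold, so called members pass them by construction. Several others, such as a fold change of at least 2 or no variance trend, leave the fold change as it was and could not change its sign. Among values that were not called, quantile normalization took the MK25 interaction of MCM7 from -0.24 to 0.0026 and POLE2 with MK25 in ischemic culture from -0.48 to -0.67, past the threshold. The planned edgeR test on recovered reads was not run, and voom on the same reads gave the same counts of called members. At any fold change, voom had 16 lower members for MK25 against VX745 in ischemic culture, where limma had 13. In regular culture that comparison had 2 with voom and 4 with limma. The interaction of MK25 had 8 lower with voom and 9 with limma. The other counts over all members at any fold change were the same. With 2 libraries a group, small changes of low genes such as POLE2 and CCNE1 are the least precise.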

Other observations

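Some regulators upstream of the replication genes were called with the inhibitors in ischemic culture. CCND1, for cyclin D1, fell with MK25 by 0.89 (SE 0.06, adjusted p = 5.05e-09, limma) and had 0.28 with VX745, and MK25 against VX745 gave -1.17 (adjusted p = 2.78e-10). CDK6, a kinase partner of cyclin D, fell with MK25 by 0.82 and had -0.26 with VX745. SKP2, which had fallen in ischemic culture, rose by 0.71 with VX745 and by 0.59 with MK25, and its interactions with culture were 0.64 and 0.65. ETAA1, an activator of the checkpoint kinase ATR, rose by 0.76 with VX745 and had 0.51 with MK25. ZNF367 fell with MK25 by 0.85 in ischemic and by 0.61 in regular culture. In regular culture MK25 also raised 5 of the 8 genes listed as a check of the ischemic condition, among them CA9 by 2.97, ANKRD37 by 2.02 and PDK1 by 1.86, and the part of this in the lower levels of CCNE2, CDT1 and E2F2 there was not tested.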
